A study of Mus musculus with 6 samples.

Results

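Chemokines are small secreted proteins that direct the movement of white blood cells, and their receptors are seven-pass membrane proteins on the cells that answer. The genes described here are the 62 distinct symbols, of 21900 in the deposited table, whose name is Ccl, Cxcl, Cx3cl, Xcl, Ccr, Cxcr, Cx3cr, Xcr or Ackr followed by a digit. Of these, 39 are ligands and 23 are receptors, the atypical receptors (Ackr) included. They were measured in inguinal white fat, a depot under the skin, of C57BL/6 mice aged 2 months that had been kept at 22 °C and then at 4 °C for 7 days. There were 3 libraries of genotype Foxp4AdipoQΔ/Δ (knockout), in which the forkhead factor gene Foxp4 is deleted by a Cre recombinase under the Adipoq promoter, and 3 of genotype Foxp4fl/fl (control), which carry the floxed gene and are labelled with no Cre. That promoter is active in mature adipocytes, so the other cells of the fat pad should keep the gene, and Cre and the loss of Foxp4 cannot be told apart. The labels do not say whether a sample was 1 mouse or a pool, so the spread between samples may be partly technical. The question is which chemokine transcripts differ in cold-exposed fat when adipocytes lack Foxp4.

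In adipose tissue, chemokine ligands are made by adipocytes, stromal cells, endothelium and resident macrophages, and receptors such as Ccr2 mark the monocytes that enter the tissue. The CC and CXC families are named after the spacing of conserved cysteines in the protein, and most act through G protein-coupled receptors linked to Gi proteins. Atypical receptors bind chemokines without such signalling and scavenge or carry them.

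Foxp4 itself stood at 1.92, 1.71 and 1.64 FPKM (reads scaled to exon length and library size) in knockouts, against 5.76, 4.01 and 4.62 FPKM in controls. No knockout library reached a control library. The libraries held 13180588 to 15998332 reads recovered from the deposited values, and 10405 to 10902 genes reached 1 FPKM in each. No pair of libraries agreed within counting noise (chi-square per degree of freedom of at least 8.86). The tissue label was met by the adipocyte markers, whose 7 genes summed to 5758 to 6056 FPKM in knockouts and 6079 to 7436 FPKM in controls. Macrophage markers were also abundant, whereas the 7 T cell markers summed to at most 1.50 FPKM in any knockout and 2.32 FPKM in any control, the 9 B cell and lymph node markers to at most 4.41 and 4.84 FPKM, and the 6 epithelial markers to at most 0.699 and 1.26 FPKM. Skeletal muscle markers ranged from 18.8 to 285 FPKM in knockouts and from 15.0 to 63.1 FPKM in controls.

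Of 6 CC ligands of chromosome 11 listed as attracting monocytes and macrophages, Ccl2 and Ccl7 overlapped between groups. The results turn first on the other 4, Ccl6, Ccl8, Ccl9 and Ccl12. These 4 were lower in every knockout library than in any control library, as were 22.7% of all tested genes. Their promoters are shown as the 250 bases before the RefSeq start of each gene (build GRCm38.p6, the assembly of mm10), 5′ to 3′ on the gene's strand, with the letters TATAAA in capitals. None of the 4 stretches overlaps an annotated exon.

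Ccl8, chr11:82114935-82115184, plus strand: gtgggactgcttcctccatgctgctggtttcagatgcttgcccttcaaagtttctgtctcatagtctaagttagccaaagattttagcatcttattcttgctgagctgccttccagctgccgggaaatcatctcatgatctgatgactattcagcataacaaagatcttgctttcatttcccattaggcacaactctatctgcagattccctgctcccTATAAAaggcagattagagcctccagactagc
Ccl12, chr11:82101595-82101844, plus strand: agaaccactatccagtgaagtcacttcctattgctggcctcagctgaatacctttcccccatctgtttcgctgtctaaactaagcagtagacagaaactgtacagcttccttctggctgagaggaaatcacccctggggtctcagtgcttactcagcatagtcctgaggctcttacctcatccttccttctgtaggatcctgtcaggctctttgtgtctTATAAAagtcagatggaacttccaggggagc
Ccl9, chr11:83578637-83578886, minus strand: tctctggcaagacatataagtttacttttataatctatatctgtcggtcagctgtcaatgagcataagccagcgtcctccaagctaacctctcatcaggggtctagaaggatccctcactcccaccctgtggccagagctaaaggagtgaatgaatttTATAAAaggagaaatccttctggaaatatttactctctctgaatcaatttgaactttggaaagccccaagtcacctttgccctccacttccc
Ccl6, chr11:83593088-83593337, minus strand: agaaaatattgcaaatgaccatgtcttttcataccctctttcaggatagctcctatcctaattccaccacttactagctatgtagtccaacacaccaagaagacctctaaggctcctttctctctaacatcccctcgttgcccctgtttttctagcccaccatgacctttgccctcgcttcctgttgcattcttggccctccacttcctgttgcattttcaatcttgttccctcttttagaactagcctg

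In Ccl8 and Ccl12, which lie next to each other, TATAAA begins 32 and 31 bases before the start. Ccl9 holds it 92 bases before the start, and the Ccl6 stretch does not hold these letters on either strand. Searched on both strands, TATAAA was found in 12.4% of 32817 RefSeq promoters of this length and in 7 of the 16 tested members with a promoter entry. The forkhead letters TGTTTAC were found in 3.16% of all promoters and in 0 of the 16. Only these exact letters were searched, so looser forms of a forkhead site would be missed. The letters GAGGAA of ETS family sites, present in 23.3% of all promoters and in 4 of the 16, occur in the printed stretches of Ccl8 and Ccl12 and not in those of Ccl6 and Ccl9. GAAA repeated after a gap of 2 bases, the letters of interferon-response sites, occurs in 2.97% of all promoters and in 2 of the 16, Cxcl10 and Cxcl14. TGANTCA, a loose form of the AP-1 site in which N is any base, occurs in 6.75% of all promoters and in 3 of the 16. The match was TGACTCA in Ccl27a, TGAGTCA in Cxcl10 and TGAATCA in Ccl9. A match is a run of letters and was not tested as a binding site.

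Of the 62 symbols, 24 averaged 1 FPKM or more in knockouts or in controls and entered the test, 16 ligands and 8 receptors. Ccl5 stood close above that limit with a control mean of 1.22 FPKM, and Cxcr3 just below it with a control mean of 0.962 FPKM. No member passed an adjusted p of 0.05 in limma, a threshold passed by 0.00927% of the 10787 genes tested. At an unadjusted p of 0.05, 12 of the 24 were lower in knockouts and 0 were higher, against 17.1% of all tested genes lower and 6.98% higher. After median-of-ratios scaling 10 members were lower and 0 higher, against 10.4% of all genes lower and 12.2% higher. On that scale the groups did not overlap in 8 members, against 29.3% of all genes in either direction. With voom, a weighted limma fit, on the recovered reads, 0 members passed an adjusted p of 0.05 and 12 were lower at an unadjusted p of 0.05. The share of all genes lower with voom was not counted, so that 12 has no share beside it. All 3 knockouts lay below all 3 controls in 12 members, against 22.7% of tested genes, and above them in 0 members, against 8.48%. Cxcl10, Ccl5 and 1 receptor entered the test through the control mean alone, so they had to be lower. Among the 21 that reached 1 FPKM in both groups, 11 were lower at an unadjusted p of 0.05 and 10 did not overlap. The shares among all genes that reached 1 FPKM in both groups were not counted.

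**Figure D1:**
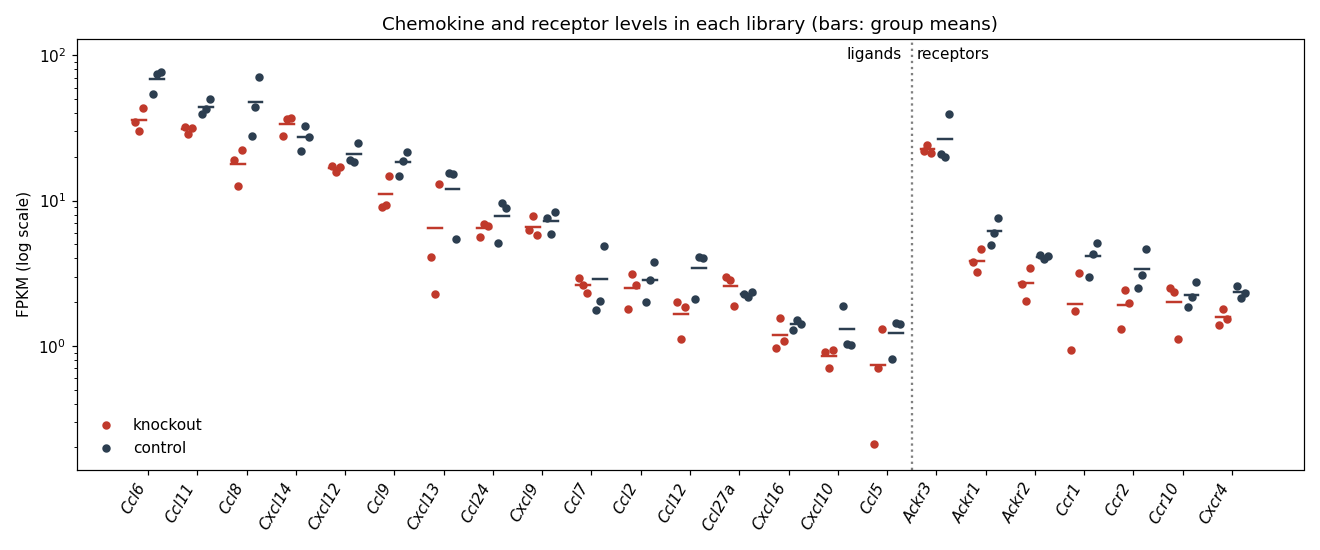
FPKM on a log axis for 23 tested members, each point 1 library and each bar a group mean, with knockouts (red) left of controls (dark) and ligands left of receptors. Ccl6, Ccl8 and Ccl11 stand among the most abundant ligands and their red points all lie below the dark ones, whereas Cxcl14 has a higher mean in knockouts.

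Ligands were far more abundant than receptors. Summed over all 39, ligands reached 171, 166 and 207 FPKM in knockouts, against 220, 279 and 318 FPKM in controls. The receptor sums were 36.6, 42.4 and 39.9 FPKM in knockouts, against 43.4, 45.5 and 71.7 FPKM in controls. Neither sum overlapped between groups, though the receptor sums nearly touched (42.4 FPKM in a knockout and 43.4 FPKM in a control). The sums were not recomputed after median-of-ratios scaling. The ratio of ligand to receptor sum overlapped, at 4.67, 3.92 and 5.19 in knockouts and 5.08, 6.15 and 4.44 in controls. The 6 most abundant ligands, Ccl6, Ccl11, Ccl8, Cxcl14, Cxcl12 and Ccl9, made up 80.2 to 81.7% of the ligand sum in knockouts and 80.5 to 85.6% in controls. At an unadjusted p of 0.05 in limma, 6 of 16 tested ligands and 6 of 8 tested receptors were lower. Over all tested genes the share was 17.1%. The median log2 fold change was -0.30 for ligands and -0.43 for receptors, beside -0.082 over all tested genes. Whether ligands and receptors differ in this was not tested. The whole-tissue RNA cannot tell fewer cells of a type from less RNA per cell, in any of the values given here.

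**Figure D2:**
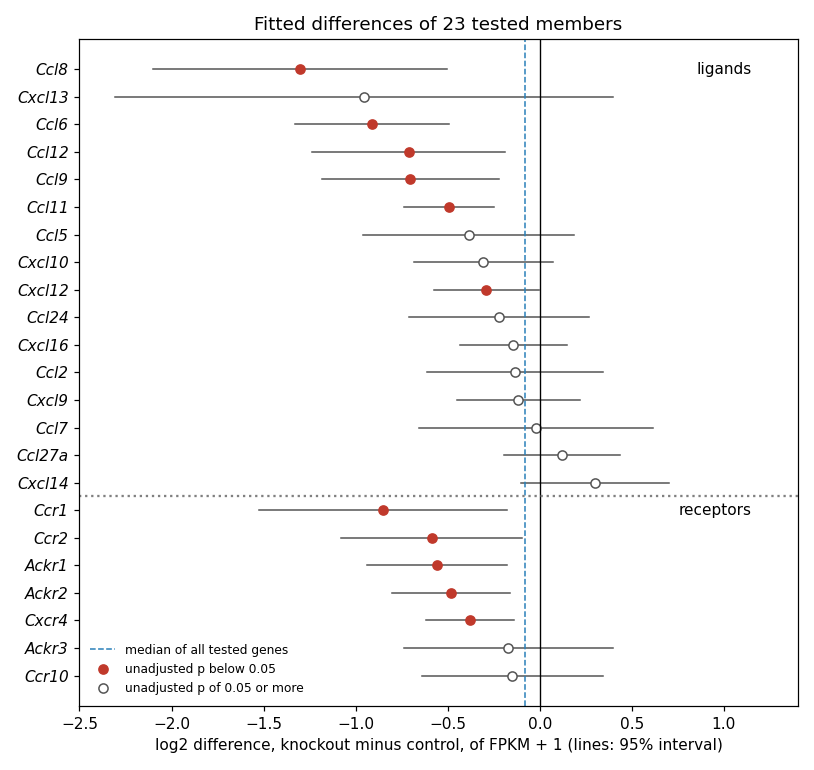
Fitted log2 differences of FPKM + 1, knockout minus control, with 95% intervals, for 16 ligands (above the dotted line) and 7 receptors (below it). Filled points had an unadjusted p below 0.05 in limma. They run from -1.30 for Ccl8 to -0.29 for Cxcl12, and the dashed line marks the median of all tested genes, -0.082.

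Among the ligands that attract monocytes and macrophages, 4 of 6 were lower at an unadjusted p of 0.05, against 17.1% of all tested genes. The others, Ccl2 and Ccl7, had close group means. Ccl8, which in mice acts through Ccr8, had the largest fitted difference of the 24. It stood at 18.9, 12.5 and 22.2 FPKM in knockouts, against 27.9, 44.2 and 71.0 FPKM in controls. The highest knockout was below the lowest control, and the controls were spread more widely than the knockouts. Its fitted log2 difference was -1.30 (SE 0.34, adjusted p = 0.10 in limma), or -0.97 without control replicate 3.

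Ccl6, a CC chemokine known from rodents that attracts macrophages, was the most abundant member. It had 34.6, 30.0 and 43.4 FPKM in knockouts, against 54.0, 74.6 and 77.5 FPKM in controls, from 716 to 2241 reads per library. The groups were well apart, with a log2 fold change of -0.91 (SE 0.18, adjusted p = 0.081 in limma). Its neighbour Ccl9, a ligand of Ccr1, had 9.04, 9.35 and 14.7 FPKM in knockouts, against 14.8, 18.6 and 21.7 FPKM in controls. Here the highest knockout and the lowest control nearly touched, with a log2 fold change of -0.70 (SE 0.20, adjusted p = 0.12 in limma).

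Ccl12, which in mice attracts monocytes through Ccr2, was scarce, with 8 to 16 reads per knockout library and 16 to 35 per control library. Its values were 2.01, 1.12 and 1.85 FPKM in knockouts, against 2.12, 4.08 and 4.04 FPKM in controls, so that control replicate 1 lay close to the knockouts. It differed by -0.71 on the log2 scale (SE 0.22, adjusted p = 0.13 in limma), and its unadjusted p of 0.015 was 0.052 without control replicate 2 and 0.054 without knockout replicate 2. Ccl2, the best known ligand of Ccr2, had 1.78, 3.11 and 2.61 FPKM in knockouts, against 2.00, 2.83 and 3.76 FPKM in controls. Ccl7, another ligand of Ccr2, had 2.95, 2.63 and 2.31 FPKM in knockouts, against 1.77, 2.05 and 4.88 FPKM in controls. In both genes the groups overlapped throughout. The fitted log2 fold changes were -0.13 for Ccl2 (95% interval -0.61 to 0.35) and -0.02 for Ccl7 (95% interval -0.66 to 0.62). Both turned positive without control replicate 3, at 0.03 and 0.32, and Ccl7 was also positive after median-of-ratios scaling (0.04).

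The eosinophil-attracting ligands Ccl11 and Ccl24 act through Ccr3. Ccl11 (eotaxin) was among the most abundant ligands, at 32.2, 28.7 and 31.9 FPKM in knockouts, against 39.8, 42.7 and 49.8 FPKM in controls. Every knockout was below every control, with a log2 fold change of -0.49 (SE 0.10, adjusted p = 0.082 in limma). Ccl6 and Ccl11 were the only members of the 24 with an adjusted p below 0.10, which 5.48% of tested genes reached. Ccl24 had 5.64, 6.92 and 6.73 FPKM in knockouts, against 5.10, 9.62 and 8.96 FPKM in controls, and the groups overlapped because of control replicate 1. The third of them, Ccl26, was listed at 0 in all knockouts and rested on 1 read in each of 2 controls. Ccr3 was below the limit, at 0.132 FPKM on average in knockouts and 0.407 FPKM in controls, where control replicate 3 alone had 0.948 FPKM. Eosinophil markers were near 0, with 4 genes summing to at most 0.944 FPKM in knockouts and 0.968 FPKM in controls, and Epx at 0 in every library.

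Of the 6 tested CXC ligands, 1 was lower at an unadjusted p of 0.05, which is near the 17.1% of all tested genes. Cxcl12, made by stromal cells and held to retain Cxcr4-bearing cells, had 17.3, 15.8 and 17.0 FPKM in knockouts, against 19.0, 18.5 and 24.9 FPKM in controls. The groups did not overlap, though they were apart by little, with a log2 fold change of -0.29 (SE 0.12, adjusted p = 0.20 in limma), which was -0.16 without control replicate 3. Its unadjusted p in limma was 0.046, but 0.083 after median-of-ratios scaling and 0.075 to 0.13 without control replicate 3 or any 1 knockout. Cxcl14, reported in mice as a chemokine released by thermogenic fat, had 27.6, 36.6 and 37.3 FPKM in knockouts, against 21.9, 32.8 and 27.6 FPKM in controls. Its mean was 33.9 FPKM in knockouts and 27.4 FPKM in controls, with overlap (log2 fold change 0.30, SE 0.17, adjusted p = 0.32 in limma). It was 1 of 2 tested members with a positive fold change. The other was the skin ligand Ccl27a, at 2.58 ± 0.60 FPKM in knockouts and 2.26 ± 0.10 FPKM in controls (SD, n = 3 each). Markers of thermogenic adipocytes (6 genes) summed to 3899, 4281 and 2752 FPKM in knockouts and to 1221, 2165 and 2790 FPKM in controls, and their part in Cxcl14 was not tested.

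The interferon-induced ligands Cxcl9 and Cxcl10 act on Cxcr3, a receptor of activated T cells. Cxcl9 had 6.23, 7.79 and 5.81 FPKM in knockouts, against 7.56, 5.92 and 8.29 FPKM in controls, with full overlap. Cxcl10 had 0.901, 0.702 and 0.939 FPKM in knockouts, against 1.89, 1.03 and 1.02 FPKM in controls. Its groups were apart, mostly through control replicate 1, and its log2 fold change of -0.31 had an adjusted p of 0.29 in limma. The exons of Cxcl10 overlap those of Art3, on the opposite strand, by up to 133 bases, so some reads may belong to either gene. Cxcl13, which guides B cells to follicles through Cxcr5, was the most erratic member. It stood at 4.12, 2.29 and 13.0 FPKM in knockouts, against 15.4, 15.2 and 5.45 FPKM in controls. Knockout replicate 3 and control replicate 3 each lay on the side of the other group, and the log2 fold change of -0.95 had an SE of 0.57. The other lymphoid organ ligands, Ccl19 and the Ccl21 copies, had no more than 0.617 FPKM in any library.

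Ccl5 and Cxcl16 also overlapped between groups. Ccl5, which attracts T cells and monocytes, had 0.211, 0.706 and 1.31 FPKM in knockouts, against 0.813, 1.43 and 1.42 FPKM in controls. Cxcl16, a membrane-bound ligand of Cxcr6, had 0.963, 1.55 and 1.07 FPKM in knockouts, against 1.29, 1.52 and 1.42 FPKM in controls. Its exons overlap those of Zmynd15 on the opposite strand by up to 552 bases.

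Among receptors of myeloid cells, Ccr1 and Ccr2 were lower at an unadjusted p of 0.05. Ccr2, which brings monocytes out of bone marrow and into tissue, had 1.31, 2.43 and 1.97 FPKM in knockouts, against 2.49, 3.07 and 4.62 FPKM in controls. The highest knockout was just under the lowest control (log2 fold change -0.59, SE 0.21, adjusted p = 0.16 in limma). Ccr1, a receptor for Ccl9 and Ccl5, had 0.931, 1.73 and 3.20 FPKM in knockouts, against 2.98, 4.32 and 5.10 FPKM in controls, so knockout replicate 3 lay above control replicate 1. The fitted log2 difference was -0.85 (SE 0.29, adjusted p = 0.15 in limma). Without control replicate 3 the fitted difference of Ccr2 was -0.39, and without knockout replicate 1 that of Ccr1 was -0.58. The unadjusted p of Ccr1 in limma was 0.020 with all libraries and 0.055 to 0.056 without control replicate 2 or 3 or knockout replicate 1 or 2. That of Ccr2 was 0.026 with all libraries and 0.050 to 0.086 without control replicate 3 or knockout replicate 1 or 3.

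Cxcr4, the signalling receptor of Cxcl12, had 1.38, 1.79 and 1.53 FPKM in knockouts, against 2.59, 2.12 and 2.30 FPKM in controls. The groups were apart with little spread inside either (log2 fold change -0.38, SE 0.10, adjusted p = 0.11 in limma). Ccr10, the receptor of Ccl27a and Ccl28, had 2.51, 2.36 and 1.11 FPKM in knockouts, against 1.85, 2.18 and 2.73 FPKM in controls. Its fitted difference of -0.15 was 0.085 without knockout replicate 3.

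Atypical receptors held the most abundant receptor transcript. Ackr3, a scavenger of Cxcl12, had 22.1, 24.2 and 21.2 FPKM in knockouts, against 20.8, 19.9 and 39.4 FPKM in controls. Control replicate 3 stood alone, and the fitted difference was -0.17 with that library and 0.14 without it. That library also had the highest sums of endothelial markers, at 144 FPKM beside 78.5 to 96.0 FPKM in the other five, and of fibroblast markers, at 934 FPKM beside 350 to 479 FPKM. Their part in the Ackr3 value was not tested. Ackr2, which degrades inflammatory CC ligands, had 2.66, 2.05 and 3.42 FPKM in knockouts, against 4.25, 3.94 and 4.19 FPKM in controls. All knockouts were below the narrow control range (log2 fold change -0.48, SE 0.14, adjusted p = 0.12 in limma). Ackr1, which carries chemokines across venules, had 3.75, 3.22 and 4.61 FPKM in knockouts, against 4.95, 5.94 and 7.64 FPKM in controls (log2 fold change -0.56, SE 0.16, adjusted p = 0.12 in limma). An Ackr1 exon overlaps one of Cadm3 on the same strand by 284 bases. Ackr4, a scavenger of Ccl19 and Ccl21, was below the limit, at 0.226, 0.070 and 0.295 FPKM in knockouts and 0.620, 0.382 and 0.300 FPKM in controls.

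Many members lie side by side in the genome. With a gap of at most 200 kb, 38 of the 60 members with a position in GENCODE M21 (mm10) fell into 10 groups of neighbours. On chromosome 11, bases 82035571 to 82305690 hold Ccl2, Ccl7, Ccl11, Ccl12, Ccl8 and Ccl1 in that order. Within this stretch of 270.1 kb, Ccl11, Ccl12 and Ccl8 were lower at an unadjusted p of 0.05, Ccl2 and Ccl7 were not, and Ccl1 was at 0 in every library. A second stretch on chromosome 11, bases 83525778 to 83664683, holds Ccl5, Ccl9, Ccl6, Ccl3 and Ccl4, of which Ccl9 and Ccl6 were lower and Ccl3 and Ccl4 had at most 0.324 FPKM in any library. A group of receptor genes on chromosome 9 holds Ccr1 and Ccr2, which were lower, and Ccr9, Cxcr6, Xcr1, Ccr1l1 and Ccr3, which were below the limit. The CXC ligands that attract neutrophils, Cxcl1, Cxcl2, Cxcl3, Cxcl5 and Cxcl15 on chromosome 5, were all below the limit, with sums of 0.358, 0.559 and 0.553 FPKM in knockouts and 0.379, 0.166 and 0.728 FPKM in controls.

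**Figure D3:**
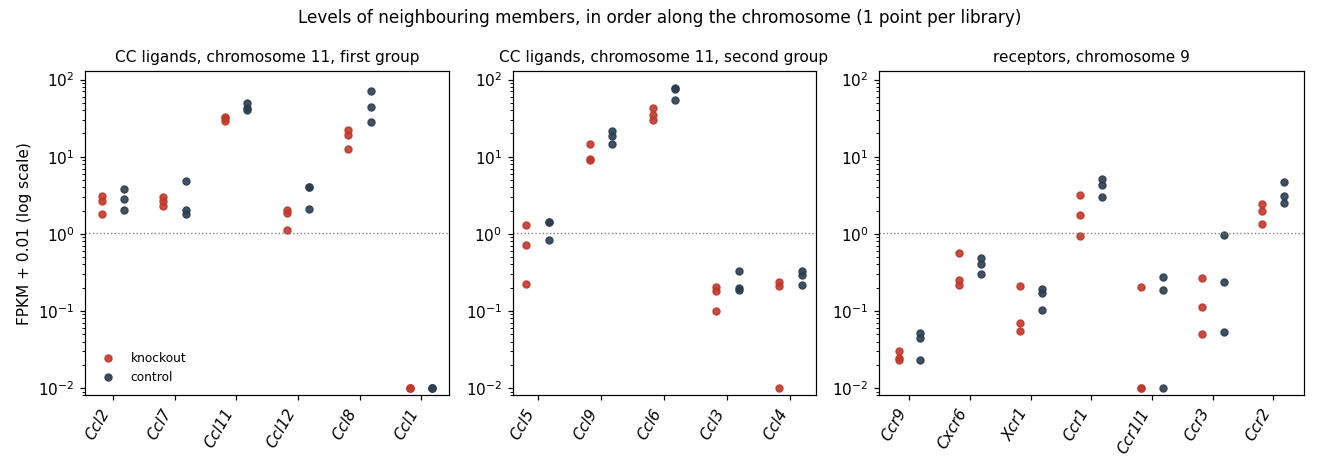
FPKM + 0.01 on a log axis in each library, knockouts (red) left of controls (dark), for 2 groups of neighbouring CC ligand genes on chromosome 11 and 1 of receptor genes on chromosome 9, in their order along the chromosome. The dotted line marks 1 FPKM. Ccl11, Ccl12 and Ccl8 are apart between groups while their neighbours Ccl2 and Ccl7 overlap.

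Beside these chemokine values, macrophage markers were lower. Of 14 macrophage markers, 13 were tested. All 13 were lower at an unadjusted p of 0.05, against 17.1% of all tested genes. Beside 22.7% of tested genes, all knockouts lay below all controls in each of the 13 markers. Their geometric mean was 15.8, 15.8 and 18.8 FPKM in knockouts, against 23.6, 25.7 and 30.8 FPKM in controls, a ratio of group means of 0.628. Division of each library by this mean raises every gene in knockouts alike, and the scale was chosen after the data were seen. On it all knockouts lay below all controls in 0 of the 24 members and in 0.102% of all tested genes. They lay above all controls in 4 members, Cxcl14, Cxcl12, Ccl27a and Ccl11, and in 65.3% of all tested genes. The median ratio of knockout to control means was 1.04 for the members and 1.48 for all tested genes, so the shift in these counts comes with the scale and is not read as a result about chemokines. The lowest ratios were 0.611 for Ccl8, 0.736 for Ccr1, 0.774 for Cxcl13, 0.784 for Ccl12 and 0.833 for Ccl6. The ratio was 0.949 for Ccl9, 0.998 for Ackr1, 1.03 for Ackr2 and 1.06 for Cxcr4. The highest ratios were 1.96 for Cxcl14, 1.84 for Ccl27a, 1.53 for Ccl7, 1.46 for Cxcl9 and for Ccr10, and 1.42 for Ccl2. For Ccl8 the values were 1.20, 0.795 and 1.18 times the macrophage mean in knockouts, against 1.18, 1.72 and 2.31 in controls, so the groups overlapped at control replicate 1. Which cells the members came from was not measured, and the part of the macrophage markers in the members' values was not tested.

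**Figure D4:**
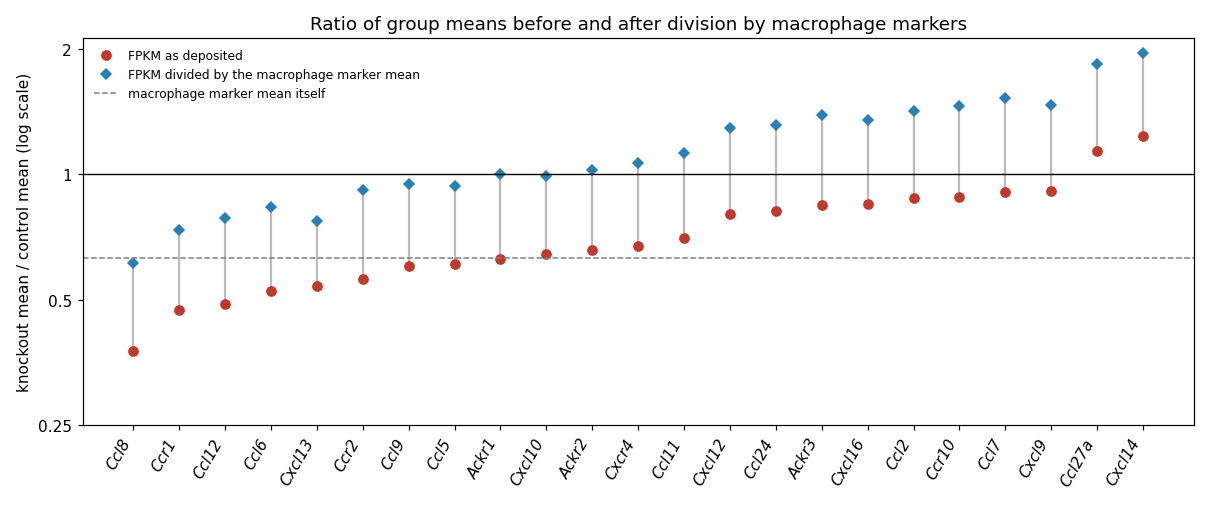
Ratio of the knockout mean to the control mean on a log axis for 23 tested members, as deposited (red circles) and after division by the geometric mean of 13 macrophage markers in each library (blue diamonds). The dashed line is that of the macrophage mean itself, 0.628, and after division the ratios run from 0.611 for Ccl8 to 1.96 for Cxcl14.

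Other leukocyte markers were fewer. In the monocyte list, which shares Ccr2 with the members, 2 of 3 tested genes were lower at an unadjusted p of 0.05. Of 4 tested neutrophil markers 2 were lower at that threshold, Retnlg and Csf3r. Csf3r entered the test through its control mean alone, so it had to be lower. The neutrophil marker sums were 5.86, 5.63 and 15.2 FPKM in knockouts and 20.3, 33.5 and 6.47 FPKM in controls. Of 5 mast cell markers 3 were lower, with sums of 46.0, 42.4 and 32.3 FPKM in knockouts and 39.6, 53.1 and 73.8 FPKM in controls. Neither of 2 tested dendritic cell markers was lower. Among 7 fibroblast markers 4 were lower, and among 6 tested endothelial markers 1. Over all tested genes 17.1% were lower at this threshold, so the endothelial count is near that share. The lists are short and were not tested as sets.

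Of the 38 members below the limit, 23 were ligands and 15 were receptors. Ccl1, Ccl20, Cxcl15, Ccl21c, Ccl21d and Ccl27b were listed at 0 in every library, and 16 of the 38, these included, had means under 0.1 FPKM in both groups. Receptors whose ligands were present could be scarce: Cxcr3 had a mean of 0.653 FPKM in knockouts and 0.962 FPKM in controls, Cxcr6 had 0.332 and 0.389 FPKM, and Cxcr5 had 0.073 and 0.053 FPKM. Ccr7, the homing receptor of dendritic cells and T cells, had 0.276 FPKM in knockouts and 0.366 FPKM in controls. The neutrophil ligand Cxcl2 rested on 1, 1 and 4 reads in knockouts and 0 in each control. Ccl19 rested on 1, 2 and 1 reads in knockouts and 0 in each control. The pair Cx3cl1 and Cx3cr1 had means of 0.750 and 0.150 FPKM in knockouts and 0.594 and 0.184 FPKM in controls. Tested without the limit, Ackr4 and Ccl26 were lower and Ccl19 higher at an unadjusted p of 0.05 in limma, with adjusted p of 0.27, 0.28 and 0.16. Ccl19, Ccl21a, Ccl21b and Ccl27a each have near-identical copies, and 6 further rows that repeat these symbols were left out, the highest at 0.571 FPKM, so their reads may be split between copies.

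Among other genes of chemokine signalling, 27 of 36 listed were tested, 12 were lower at an unadjusted p of 0.05 and 1 was higher. Over all tested genes 17.1% were lower and 6.98% higher. This list was not recounted after median-of-ratios scaling. Arrb2, an arrestin that ends receptor signalling, had 5.04, 5.24 and 5.27 FPKM in knockouts, against 8.58, 6.78 and 7.50 FPKM in controls. Grk6, a kinase that marks receptors for arrestins, had 10.8, 10.1 and 11.3 FPKM in knockouts, against 14.6, 13.4 and 14.4 FPKM in controls. For both, all knockouts were below all controls, with log2 fold changes of -0.47 and -0.37 (adjusted p = 0.081 and 0.082 in limma). The next by p were Rac2, a GTPase of leukocyte migration (-0.70), the transcription factor Stat3 (-0.37), the NF-kappaB inhibitor Nfkbia (-0.47) and the platelet chemokine Pf4 (-0.51), a CXC ligand outside the naming rule, with adjusted p of 0.12 to 0.14. The 1 that was higher was Grk3, at 15.1 FPKM in knockouts and 9.82 FPKM in controls (0.63, adjusted p = 0.18), named after its values were seen. Of 8 inducing cytokines 1 was tested, Il4, at 0.677 FPKM in knockouts and 1.28 FPKM in controls, and Ifng was at 0 in every library. Il4 entered the test through its control mean alone, so it had to be lower.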

How the data were processed

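Per the labels' protocols, stranded messenger RNA libraries were read on an Illumina sequencer. Tools listed in the submitters' processing notes are HISAT2, HTSeq and cutadapt, with build mm10. The sources used here do not give versions, annotation or strand setting. The authors deposited 1 table of FPKM values, 21936 rows and 6 libraries, with the unit read from the values: FPKM times merged exon length (GENCODE M21) came within 0.05 of a whole number of reads in 98.0 to 98.1% of cases below 50 reads. Of rows sharing a symbol the one with the highest mean was kept. Genes averaging 1 FPKM or more in knockouts or in controls were fitted with limma 3.58.1 (R 4.3.3, mean-variance trend) on log2(FPKM + 1), with genotype as the only term, all 6 libraries and Benjamini-Hochberg adjustment over 10787 genes. Fold changes on this scale understate those of low genes. Exact tests of 3 against 3 cannot go below a p of 0.10. The fit was tested on simulated data. Members and lists were chosen with earlier results of these data known. One tested receptor is not reported here beyond its part in counts, sums and medians. Every other tested member is described, and other signalling genes were named by smallest p. Alternatives were another pseudocount, other filters, median-of-ratios scaling, voom on recovered reads, the replicate number as a block and leaving out each library.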

Additional observations from a re-analysis of the deposited data

How the results depend on the processing

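Each of the 12 alternatives left 0 members at an adjusted p of 0.05, and 8 to 14 members were lower at an unadjusted p of 0.05. Leaving out 1 library gave 8 to 13, with 8 without knockout replicate 1 or 2. Among the alternatives, the share of all genes lower was counted only after median-of-ratios scaling. The range is therefore not read as a result about chemokines. The count of non-overlapping members was 12, beside 31.2% of all tested genes, and 8 after median-of-ratios scaling, beside 29.3%. Without 1 library it was 13 to 16. Groups with fewer libraries fall apart more easily, and the share over all genes was not counted there. The rise is therefore not read as a result about chemokines. One member was higher at an unadjusted p of 0.05 without a filter (1, Ccl19), with the replicate block (1, Cxcl14) and in 4 fits without 1 library (0 to 1). Ccl6, Ccl8, Ccl9, Ccl11, Ackr1, Ackr2 and Cxcr4 were lower at an unadjusted p of 0.05 in all 12 alternatives. Over all genes the count at an adjusted p of 0.05 was 1, and it was 0 without a filter, 3 with a filter at 0.1 FPKM, 0 with the replicate block, 0 with voom and 0 to 5 without 1 library. The medians of ligands and receptors were -0.092 and -0.11 without a filter and -0.13 and -0.17 with a filter at 0.1 FPKM, which add scarce genes whose differences the added 1 FPKM shrinks, and the receptor median was -0.65 with voom. Without 1 library they ranged from -0.41 to -0.23 and from -0.49 to -0.38. Ccl7 changed sign with a pseudocount of 0.1 (0.0015), after median-of-ratios scaling (0.043) and without 1 library (-0.23 to 0.32). So did Ccl2 (-0.30 to 0.030), Ccr10 (-0.28 to 0.085) and Ackr3 (-0.34 to 0.14) without 1 library, and the cause was not tested.

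Same-numbered libraries did not deviate together (correlations of 0.065, 0.027 and -0.25 across genes), so the numbers were not taken as pairs. With the replicate block, 13 members were lower. Depth limits the scarce members: Ccl12 and Ccl5 rest on 3 to 35 reads per library. Intervals cover the spread between 3 libraries per group.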
